A study of Xenopus tropicalis with 26 samples.

Results

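The 4 libraries described here follow Xenopus tropicalis embryos from stage 7 to stage 8 after injection of an E2f1 morpholino together with E2f1 mRNA. They were chosen by their labels alone, as both stage 8 and both stage 7 libraries of that treatment, and are 4 of the 26 poly(A) RNA-seq libraries of the series. The comparison asks which zygotic genes still start between these stages when embryos hold an excess of E2f1 transcript. The same step was read in embryos given the same morpholino with mRNA for an E2f1 mutant labelled deltaDBD, in embryos given the morpholino alone, and in wildtype embryos with no treatment, each with 2 libraries a stage, and wildtype embryos were also sampled at stage 6. Every injected group used here carries the morpholino, and both mRNA groups carry an injected e2f1 transcript, which the counting cannot separate from the embryo's own. The labels give neither the kind of morpholino nor the amounts injected, and nothing in them says that the 2 libraries of a group came from separate clutches. The p-values therefore measure change only against the spread between libraries of the same group, pooled over all 26 libraries, and that spread may be technical.

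E2f1 is a DNA-binding transcription factor of the E2F family, held in check by retinoblastoma proteins and best known for driving genes of DNA replication and of entry into S phase. A frog embryo cleaves at first on RNA and protein stored in the egg, and its own genome is switched on in bulk around the midblastula transition. Stored T-box, Fox, Sox and Pou factors and the β-catenin pathway then start the first zygotic genes, among them Nodal ligands, the dorsal siamois genes and, soon after, the genes that mark the organizer, the mesoderm and endoderm, the ventral side and the ectoderm.

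The E2f1 mRNA libraries held between 16653934 and 18687087 counted fragments, within the range of all 26 libraries (14071614 to 19032710), and 12883 of 28778 genes passed the filter on low counts. The e2f1 transcript stood at 2716 and 2743 counts per 1000000 (CPM) at stage 8, against 3038 and 2987 CPM at stage 7 of these embryos. In deltaDBD embryos it stood at 2083 and 2022 CPM at stage 8, against 2145 and 2081 CPM at stage 7, and no wildtype library at either stage was above 447 CPM. So e2f1 was high at both ends of the step, and it fell slightly between them (log2 fold change −0.14, SE 0.04, adjusted p = 0.00162). The 9 egg and early embryo markers were all above 1 CPM and summed to 2423 to 2464 CPM at stage 8 and 2664 to 2694 CPM at stage 7. All 7 ovarian follicle markers in the table had no count in the 4 libraries, 18 of 19 markers of differentiated tissues lay below 1 CPM (summed level 1.49 to 2.38 CPM at stage 8 and 1.37 to 1.84 CPM at stage 7, with actc1, alb and neurod1 among those at 0), and 5 of 6 testis markers did as well (2.23 to 2.702 CPM at stage 8 and 1.78 to 2.03 CPM at stage 7, with tekt1 at 0).

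Both control steps need a reading of their libraries first. The stage 7 libraries of deltaDBD embryos already stood near their stage 8 level for zygotic genes: over 72 zygotic genes that rise in wildtype embryos, defined below, their median stage 7 level was 79.3% of their stage 8 level. The same median was 9.78% in E2f1 mRNA embryos, 57% with the morpholino alone and 4.86% in wildtype embryos. The morpholino-only ratio was thus high as well. Against wildtype embryos of the same stage, the deltaDBD median was 828% at stage 7, over genes with a wildtype count there, and 65% at stage 8. The E2f1 mRNA medians were 40% at stage 7 and 17.3% at stage 8. It was therefore at stage 7 that deltaDBD embryos stood far above wildtype embryos, and the reason was not tested. The wildtype stage ratio of 4.86% and the shares of stage 8 wildtype may be lowered by the choice of these genes, which used the stage 8 wildtype libraries. The labels do not say whether the stage 7 embryos of some groups were collected later than those of others, so in each comparison of steps the injection and the time of collection cannot be told apart. The stage 8 libraries of morpholino-only embryos stood apart from each other. Their chi-square per degree of freedom was 12.4, against 1.81 to 2.26 in the other 12 groups. The step of that group is therefore given for reference and not leaned on. All libraries of the series were fitted together, so these libraries also enter the spread behind every p-value.

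Between stage 7 and stage 8, embryos with E2f1 mRNA changed widely. At an adjusted p below 0.05, 2917 genes were higher and 2828 lower at stage 8, together 44.6% of the genes tested, and 233 of the higher and 36 of the lower changed 2-fold or more. DeltaDBD embryos changed at 0.38%, with 29 genes higher and 20 lower, and at 917 genes with an unadjusted p under 0.05. Embryos with the morpholino alone changed at 3.69%, with 186 higher and 290 lower, and these counts ran from 68 to 1500 and from 54 to 1986 when 1 library was left out. Wildtype embryos changed at 36.7% of genes in the same step, with 2461 higher and 2268 lower.

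Most genes called in the step with E2f1 mRNA were called the same way in wildtype embryos. Of the genes that rose with E2f1 mRNA, 1910 also rose in wildtype embryos, which is 65.5% of the E2f1 mRNA list and 77.6% of the wildtype list. Of those that fell, 1933 also fell in wildtype embryos (68.4% and 85.2%). Of all genes tested, 19.1% rose and 17.6% fell in wildtype embryos, and 22.6% rose and 22% fell with E2f1 mRNA. Opposite calls were few, with 4 genes that rose and 6 that fell with E2f1 mRNA. The log2 changes had a Pearson correlation of 0.87 over the 9786 genes with a mean of 5 CPM or more and 0.66 over all genes tested. The groups compared share no library, but genes are not independent replicates and these values only describe the tables. A test of the difference between the E2f1 mRNA and wildtype steps called 85 genes (0.66%). The difference of signed log2 changes, E2f1 mRNA minus wildtype, was positive in 44 and negative in 41. A negative difference can be a smaller rise or a greater fall, and a positive one a greater rise or a smaller fall. These counts were 17 to 27 and 19 to 26 when any 1 of the 8 libraries was left out, and 319 and 221 when only these groups were fitted, so how many genes differ is not settled. Set against the deltaDBD step the test called 3320 genes (25.8%), 1649 with a positive difference and 1671 with a negative one. The deltaDBD step itself had 20 genes called lower and the E2f1 mRNA step 2828, so many negative differences are falls with E2f1 mRNA.

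**Figure D1:**
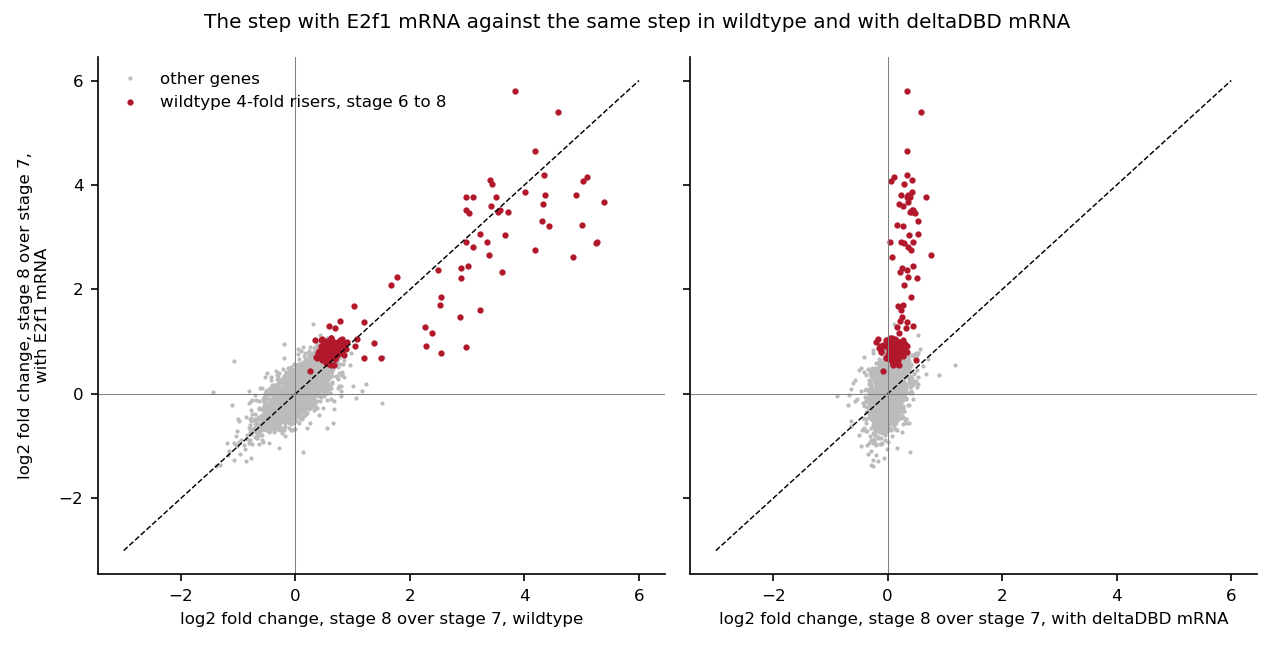
Each point is one of 9786 genes with a mean of 5 CPM or more; the vertical axis is the log2 fold change of stage 8 over stage 7 with E2f1 mRNA, and the horizontal axis is the same step in wildtype embryos (left) or with deltaDBD mRNA (right), with equal change on the dashed line. Red points are genes that rise 4-fold or more in wildtype embryos between stages 6 and 8. They spread along the line against wildtype, while against deltaDBD mRNA they stand in an upright column near 0 on the horizontal axis.

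Zygotic genes were read from 8 lists that hold 180 symbols, of which 164 were in the table and 127 could be tested. With E2f1 mRNA, 66 of the 127 were higher at stage 8 than at stage 7 and 13 were lower, where 22.6% and 22% of all genes tested were called in those directions. In all 66 both stage 8 libraries stood above both stage 7 libraries, and in all 13 both stood below, which a call from these same libraries makes likely. Regardless of call, both stood above in 86 of the 127, where 37.7% of all genes tested did. DeltaDBD embryos had 3 of the 127 higher and 0 lower (0.225% and 0.155% of all genes). Embryos with the morpholino alone had 38 higher and 1 lower (1.44% and 2.25% of all genes), and wildtype embryos 93 higher and 14 lower (19.1% and 17.6%). The median log2 change with E2f1 mRNA was 1.22, or 0.84 when each gene with no count at stage 7 is set to the lower bound that 3 counts allow, against 0.03 over all genes tested. Of the 93 genes that rose in wildtype embryos, 65 also rose with E2f1 mRNA, 28 were not called and 0 fell. The remaining 37 genes in the table were too low to test: 20 had no count in the 4 libraries, and the highest, ripply2.2, averaged 0.243 CPM at stage 8 and 0.403 CPM at stage 7.

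The larger rises were those of genes scarcely present before the step. Of the 127 genes, 65 stood below 0.2 CPM in wildtype embryos at stage 6. Of these, 42 rose with E2f1 mRNA and 0 fell, and their median log2 change was 3.26, beside 4.52 in wildtype embryos. The other 62, already present at stage 6, had 24 higher and 13 lower, and their median log2 change was 0.16. These lists were drawn up with earlier results of these data known, and the split uses wildtype libraries only. A gene below 0.2 CPM at stage 6 has little room to fall later. Such a gene also passes the filter on low counts only through libraries where it is higher. The 0 that fell among the 65, and their contrast with the other 62, are therefore a description and not support. In RNA from whole embryos, fewer cells that express a gene and less RNA per cell cannot be told apart, and with poly(A) selection neither can more RNA and a longer tail.

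The Nodal ligands and siamois genes, the first dorsal and mesendoderm signals, came on. Siamois genes encode homeodomain proteins that switch on the organizer downstream of β-catenin. The siamois gene sia2 (chromosome 3, 144315731 to 144317559 on the v10 assembly) stood at 5.27 and 5.78 CPM at stage 8, against 1.31 and 1.01 CPM at stage 7 of E2f1 mRNA embryos. In deltaDBD embryos it stood at 7.45 and 7.61 CPM at stage 8, against 4.88 and 6.88 CPM at stage 7, and in wildtype embryos at 10.7 and 9.99 CPM and at 3.26 and 2.73 CPM. The stage 8 and stage 7 libraries did not overlap with E2f1 mRNA or in wildtype embryos, and at stage 7 the E2f1 mRNA embryos had the lowest level of the 3 groups. The E2f1 mRNA step was 2.24 on the log2 scale (SE 0.26, adjusted p = 1.71e-08), against 1.78 in wildtype embryos. Its neighbour in function sia1 rose by 2.46 (SE 0.45, adjusted p = 3.61e-05).

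Nodal ligands are TGF-β family signals that induce mesoderm and endoderm. Among them nodal3.1, which acts in the organizer (chromosome 3, 132081088 to 132083628), stood at 4.87 and 4.19 CPM at stage 8, against 0.717 and 1.01 CPM at stage 7 with E2f1 mRNA. Its deltaDBD libraries read 9.37 and 9.38 CPM at stage 8 and 8.30 and 6.57 CPM at stage 7, and its wildtype libraries read 15.9 and 16.3 CPM and 2.78 and 2.97 CPM. Both groups with a clear step ended it well apart from where they began, but E2f1 mRNA embryos reached 28% of the wildtype stage 8 level. The log2 change was 2.38 with E2f1 mRNA (SE 0.27, adjusted p = 1.15e-08), and it differed from the deltaDBD step by 2.05 (adjusted p = 1.85e-05). The mesendoderm inducers nodal6 and nodal5 rose by 2.18 (adjusted p = 1.25e-07) and 2.02 (adjusted p = 0.00187). The TGF-β family gene gdf3 rose by 0.70 (adjusted p = 0.000915, but 0.0604 without stage 8 replicate 1). In total 6 of 7 tested genes of this group were called higher, as were 7 of 7 in wildtype embryos (22.6% and 19.1% of all genes tested). The one not called was nodal, with 6 counts over the 2 stage 8 libraries and 0 at stage 7 (adjusted p = 0.0553).

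**Figure D2:**
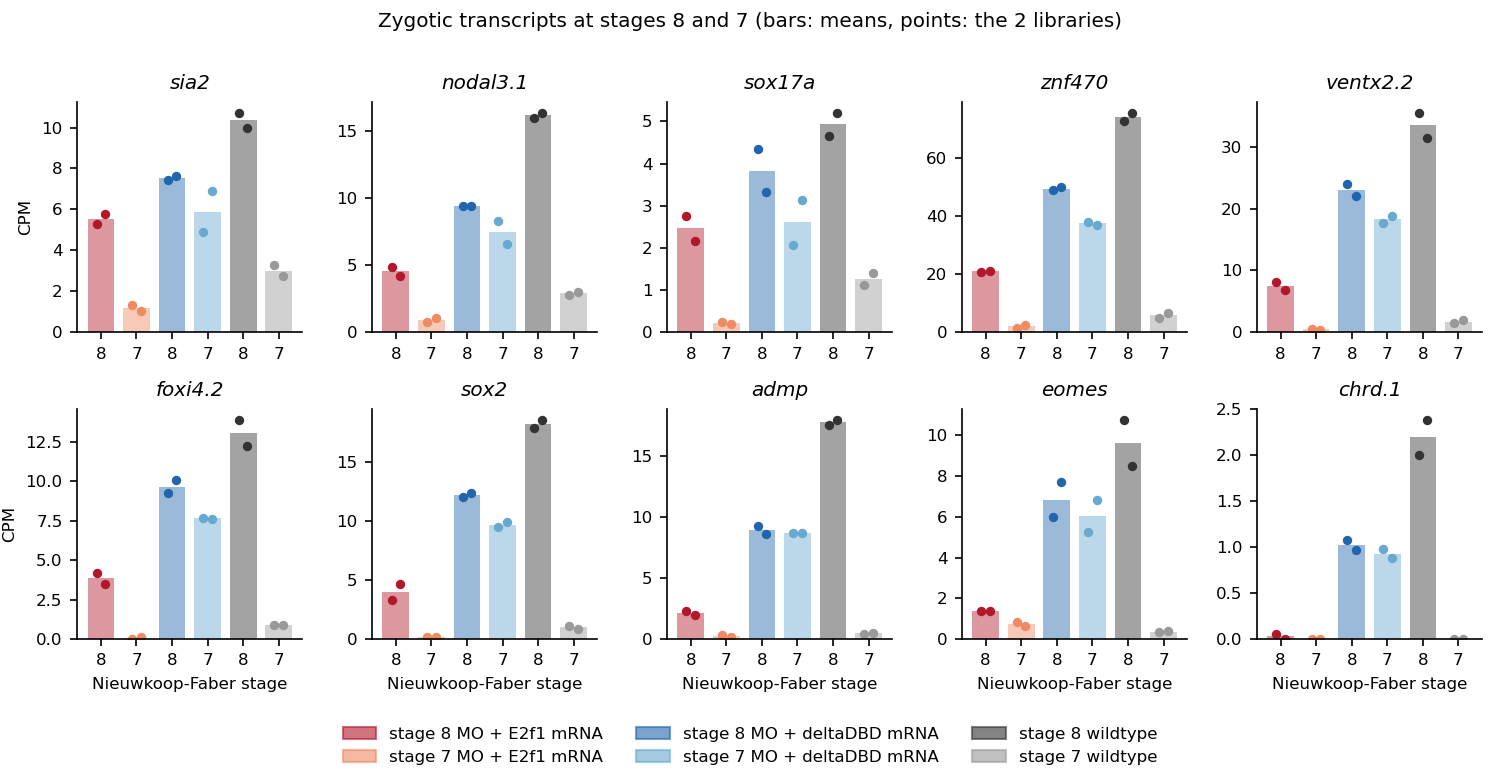
Bars are mean CPM on a linear axis and points are the 2 libraries of each group, for 10 zygotic genes, with stage 8 left of stage 7 in E2f1 mRNA, deltaDBD mRNA and wildtype embryos. With E2f1 mRNA the first 8 genes start near 0 at stage 7 and end below both other groups at stage 8, eomes stays between 0.634 and 1.38 CPM, and chrd.1 has 1 count in all at stage 8.

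The organizer gave a split result, with 6 of 13 tested genes called higher with E2f1 mRNA and 12 of 13 in wildtype embryos. Of all genes tested, 22.6% and 19.1% were called higher in those steps. The BMP-like ligand gene admp, which is made in the organizer, stood at 2.29 and 1.96 CPM at stage 8, against 0.358 and 0.190 CPM at stage 7. It rose by 2.91 on the log2 scale (SE 0.36, adjusted p = 6.86e-08), yet wildtype embryos held 17.6 and 18 CPM at stage 8. The Wnt antagonist gene dkk1 rose with 25 counts at stage 8 and 1 at stage 7, a ratio of 22.4 (95% counting interval 3.66 to 918, adjusted p = 0.00183). The forkhead gene foxa4, of the dorsal midline, had 23 counts at stage 8 and none at stage 7, at least 6.86-fold higher against a floor of 3 counts over the group. The BMP and Activin antagonist gene fst and the Wnt antagonist gene sfrp2 were called on 11 against 1 counts and 20 against 3 counts. Both calls ended without stage 7 replicate 1, without stage 7 replicate 2 or without stage 8 replicate 1, with adjusted p up to 0.328 for fst and 0.486 for sfrp2.

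The notochord homeobox gene named not began the step at its wildtype level. It stood at 17.7 and 18.9 CPM at stage 8, against 9.91 and 9.45 CPM at stage 7 with E2f1 mRNA, and in wildtype embryos at 50.3 and 51.5 CPM and at 10.01 and 11.1 CPM. The stage 7 libraries of both groups therefore lay close together, and only the stage 8 libraries were far apart. The not step was 0.92 with E2f1 mRNA (adjusted p = 2.83e-08) against 2.27 in wildtype embryos, a difference of −1.35 (SE 0.15, adjusted p = 1.12e-06).

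The defining organizer genes were among those not called. The BMP antagonist gene chrd.1 had 1 count over both stage 8 libraries of E2f1 mRNA embryos and none at stage 7. Its deltaDBD libraries read 1.07 and 0.965 CPM and its wildtype libraries 2.01 and 2.39 CPM at stage 8. The homeobox gene gsc had 4 counts against 0, the homeobox gene lhx1 7 against 1, the BMP antagonist gene nog 8 against 7, foxb1 6 against 2 and the secreted-factor gene pnhd 5 against 0. All 6 rose in wildtype embryos. At this depth a small start of gsc, pnhd or chrd.1 was not detectable, and the absence of a call does not show that none occurred.

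Endoderm genes were among the clear rises. The endoderm determinant sox17a, an HMG-box factor (chromosome 6, 115156636 to 115158925), stood at 2.75 and 2.17 CPM at stage 8, against 0.239 and 0.190 CPM at stage 7 with E2f1 mRNA. In deltaDBD embryos it read 4.34 and 3.32 CPM at stage 8 and 2.07 and 3.13 CPM at stage 7, and in wildtype embryos 4.66 and 5.21 CPM and 1.12 and 1.40 CPM. Its log2 step of 3.47 (SE 0.44, adjusted p = 9.18e-08) stood beside 1.97 in wildtype embryos, and the difference of those steps was not called (adjusted p = 0.302). Its close copies sox17b.1 and sox17b.2 rose by 2.7 and 2.2, and reads shared between near-identical copies may be divided unevenly or left uncounted. The endoderm homeobox gene mix1 had no count at stage 7 and stood at 1.43 and 1.01 CPM at stage 8, at least 13.1-fold higher. Its relative mixer had 10 counts against 0, at least 2.98-fold higher, but the call ended on leaving out any 1 of the 4 libraries (adjusted p up to 0.109). The bix1.2 gene had 17 counts against 1, a ratio of 15.2 (95% counting interval 2.38 to 636), and was not called without stage 7 replicate 1 or without stage 8 replicate 2 (adjusted p up to 0.123).

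Mesoderm genes were mixed. The T-box gene eomes, an activator of mesoderm and endoderm genes, stood at 1.37 and 1.38 CPM at stage 8, against 0.836 and 0.634 CPM at stage 7 with E2f1 mRNA. In deltaDBD embryos it read 5.98 and 7.72 CPM at stage 8, and wildtype embryos held 10.8 and 8.52 CPM at stage 8 and 0.321 and 0.364 CPM at stage 7. Before the step, both E2f1 mRNA libraries thus stood above both wildtype libraries for eomes, at low levels and in a contrast that was not tested. After the step, eomes stood at 14.3% of the wildtype level. Its step of 0.89 (adjusted p = 0.0442) lost its call when any 1 of the 4 libraries was left out (adjusted p 0.0719 to 0.221), whereas the difference from the wildtype step was −3.90 (adjusted p = 7.83e-05). The ventrolateral Wnt ligand gene wnt8a had 13 counts against 1, 15.9% of the deltaDBD level at stage 8, and its call ended without stage 7 replicate 2 (adjusted p = 0.0899). The T-box gene tbxt (brachyury), the marker of early mesoderm, had 4 counts at stage 8, all in replicate 2, and none at stage 7, and was not called. The snail family gene snai1 was not called either, at 15.4 and 13.6 CPM against 14.2 and 13.8 CPM, where its wildtype step was 0.80. The difference of those steps was −0.75 (adjusted p = 0.025, up to 0.176 without 1 of 6 of the 8 libraries). In all, 9 of 17 tested genes of this list rose and 0 fell, where 22.6% and 22% of all genes tested did. One of the 9 is the stored T-box gene vegt, whose log2 change of 0.10 was not called without any 1 of the 4 libraries (adjusted p up to 0.248).

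Of the ventral genes of the BMP pathway, 10 of 17 were called higher, 2 lower and 5 in neither direction. The shares of all genes tested called higher and lower were 22.6% and 22%. The ventx homeobox genes are direct targets of BMP signalling that hold the ventral state. The ventx2.2 gene (chromosome 7, 26877234 to 26879212) stood at 8.07 and 6.83 CPM at stage 8, against 0.418 and 0.381 CPM at stage 7 with E2f1 mRNA. Its deltaDBD libraries read 24 and 22 CPM at stage 8 and 17.8 and 18.8 CPM at stage 7, and its wildtype libraries 35.6 and 31.4 CPM and 1.39 and 1.94 CPM. All 3 stage 8 groups were apart from each other, with E2f1 mRNA lowest. The log2 step of 4.19 (SE 0.27, adjusted p = 6.24e-14) stood beside 4.34 in wildtype embryos. The neighbouring copy ventx2.1 rose by 3.81 (adjusted p = 2.69e-09), while ventx1.1 and ventx3.1 had no count at stage 7 and were at least 5.07-fold and 7.16-fold higher at stage 8. The ventx3.2 gene was called on 18 against 2 counts, and not without stage 7 replicate 1, stage 7 replicate 2 or stage 8 replicate 1 (adjusted p up to 0.0952).

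The ligand gene bmp4 rose to 2.29 and 2.44 CPM at stage 8, against 0.239 and 0.698 CPM at stage 7, a log2 change of 2.34 (adjusted p = 6.86e-06). The BMP target id3, an inhibitor of bHLH factors, was one of the genes with a smaller step than in wildtype embryos. It read 14.7 and 11.6 CPM at stage 8 and 7.40 and 7.74 CPM at stage 7 with E2f1 mRNA, against 39.3 and 36.9 CPM and 6.37 and 6.68 CPM in wildtype embryos, a difference of −1.76 on the log2 scale (adjusted p = 1e-06). The inhibitory Smad genes smad6 and smad7, which feed back on the pathway, rose by 0.36 and 0.84, and the stored ligand gene bmp2 rose by 0.35. That made bmp2 the only gene of the 8 lists called higher with E2f1 mRNA and not called in wildtype embryos (adjusted p = 0.0739 there), and the difference of its steps was not called (adjusted p = 0.496). The pseudoreceptor gene bambi and the inhibitor id2, both stored, fell by 0.38 and 0.26. The BMP target msx2 had 1 count at each stage, and ventx1.2, szl and gata2 were not called.

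Ectoderm genes had 5 of 14 members called higher and 1 lower, where 22.6% and 22% of all genes tested were. The forkhead gene foxi4.2, a relative of the ectoderm factor foxi1 (chromosome 1, 18302343 to 18304330), stood at 4.18 and 3.5 CPM at stage 8, against 0 and 0.127 CPM at stage 7 with E2f1 mRNA. In deltaDBD embryos it read 9.25 and 10.1 CPM at stage 8 and 7.69 and 7.63 CPM at stage 7, and in wildtype embryos 13.9 and 12.3 CPM, with 0.910 CPM in both stage 7 libraries. With E2f1 mRNA it had 139 counts against 2, a ratio of 62.2 (95% counting interval 16.9 to 519, adjusted p = 9.41e-12). Its relative foxi1 had 31 counts against 0, at least 9.25-fold higher. The AP-2 gene tfap2a, an epidermal and neural crest regulator, was called on 13 counts against 1, mostly from 1 library (0.115 and 0.583 CPM), and not without stage 7 replicate 2 or without stage 8 replicate 2 (adjusted p up to 0.458). Klf17, a Krüppel-like factor, rose to 25.3 and 26.2 CPM, against 9.32 and 9.13 CPM at stage 7, a log2 step of 1.48 that was smaller than in wildtype embryos by 1.38 (difference −1.38, adjusted p = 6.68e-06). The stored foxi2 fell by 0.27. The epidermal genes grhl3, dlx5 and znf750 had 12 counts against 6, 12 against 2 and 5 against 1 and were not called, although each rose in wildtype embryos.

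Among neural and pluripotency genes, 8 of 24 rose and 5 fell, where 22.6% and 22% of all genes tested did. The HMG-box gene sox2, which marks neural competence and pluripotency (chromosome 5, 108035485 to 108037707), stood at 3.32 and 4.66 CPM at stage 8, against 0.179 and 0.127 CPM at stage 7 with E2f1 mRNA. Its deltaDBD libraries read 12 and 12.3 CPM at stage 8 and 9.46 and 9.89 CPM at stage 7, and its wildtype libraries 17.9 and 18.6 CPM and 1.12 and 0.850 CPM. The log2 step was 4.64 (SE 0.39, adjusted p = 1.94e-11), beside 4.19 in wildtype embryos. The Iroquois gene irx1, the forkhead gene foxd4l1.1 and the Pou factor gene pou5f3.1 rose with ratios of 13.4, 9.84 and 13.9 on 2 or 3 counts at stage 7 (95% counting intervals 4.31 to 67.5, 3.09 to 50.2 and 3.53 to 120). The Notch pathway repressor gene hes4 rose by 1.86 and stored sox11 by 0.55. The 5 that fell are all stored transcripts, sox3 by 0.25, pou5f3.3 by 0.31, lin28a by 0.23, sall4 by 0.13 and zic2 by 0.10, of which zic2 was not called without any 1 of the 4 libraries (adjusted p up to 0.173). The genes zic4, sox21, irx2 and irx3, with 4 to 15 counts at stage 8, were not called.

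The signalling list of FGF feedback, Wnt, Notch and other early zygotic genes had 17 of 30 called higher and 5 lower. Of all genes tested, 22.6% and 22% were called in those directions. The FGF ligand genes fgf8 and fgf20 had 22 counts against 3 and 26 against 2, and the call of fgf8 ended without stage 7 replicate 2 or stage 8 replicate 1 (adjusted p up to 0.0582) and that of fgf20 without stage 8 replicate 2 (adjusted p = 0.153). The FGF feedback phosphatase gene dusp6 stood at 4.01 and 6.25 CPM at stage 8, against 2.15 and 1.2 CPM at stage 7. Its log2 step of 1.61 (adjusted p = 1.02e-06) was smaller than the wildtype step of 3.22, and the difference of −1.61 (adjusted p = 0.00943) was not called without stage 7 E2f1 mRNA replicate 1, stage 8 E2f1 mRNA replicate 1 or stage 7 wildtype replicate 2 (adjusted p up to 0.385). The feedback genes spry1 and spry2 rose by 0.69 and 0.73. The kinase-like gene sbk1l rose to 6.98 and 5.78 CPM at stage 8, against 0.418 and 0.317 CPM at stage 7, a log2 step of 4.08 (adjusted p = 1.5e-13), and ended at 26.5% of the deltaDBD level. The Nodal antagonist gene lefty rose to 1.95 and 0.954 CPM, against 0.119 and 0.190 CPM, a step of 3.16. The Wnt feedback gene axin2, which is stored and also rises, was the only zygotic riser whose stage 8 mean lay above that of wildtype embryos, by less than the spread between libraries, at 77.9 and 81.6 CPM against 45.7 and 48.7 CPM at stage 7. The small GTPase gene rnd1 was not called with E2f1 mRNA, at 29 and 30.04 CPM against 28.5 and 30.1 CPM, while its wildtype step was −0.52. The difference of 0.53 (adjusted p = 0.0419) was not called without any 1 of the 8 libraries (adjusted p up to 0.214). For rasl11b, a Ras-like gene, the E2f1 mRNA libraries read 4.58 and 5.03 CPM at stage 8 and 5.43 and 5.45 CPM at stage 7, where the wildtype step was 1.52 and the difference −1.70 (adjusted p = 0.00013).

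All 5 zinc finger genes of the cluster on chromosome 6 rose, the only list with every member called, where 22.6% of all genes tested rose. The highest, znf470 (chromosome 6, 2904657 to 2908318), stood at 20.8 and 21.1 CPM at stage 8, against 1.49 and 2.28 CPM at stage 7 with E2f1 mRNA. Its deltaDBD libraries read 49.0 and 50.1 CPM at stage 8 and 38.1 and 37.1 CPM at stage 7, and its wildtype libraries 72.9 and 75.8 CPM and 4.92 and 6.49 CPM. The log2 step of 3.47 (SE 0.15, adjusted p = 6.53e-18) stood beside 3.71 in wildtype embryos and differed from the deltaDBD step by 3.08 (adjusted p = 1.5e-13). The other 4 (znf3, znf33a, znf33b and znf350) rose by 2.45 to 4.01. These genes lie between positions 2857519 and 3100953, so neighbours with similar sequence may share reads. The 3 zygotic genes called higher in the deltaDBD step were all from this cluster.

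The 28 zygotic genes that rose in wildtype embryos but were not called with E2f1 mRNA were mostly low. Their median was 0.167 CPM at stage 8 and 0.0457 CPM at stage 7 with E2f1 mRNA, a median of 6 counts over both stage 8 libraries, against 1.48 CPM in wildtype embryos at stage 8. In 23 of the 28 the stage 8 mean was above the stage 7 mean. The 65 genes that rose in both had a median of 2.46 CPM at stage 8 and 0.399 CPM at stage 7 with E2f1 mRNA, against 10.03 CPM in wildtype embryos at stage 8. A gene with no call here is therefore in most cases a gene that these libraries counted a few times, and whether it started was not resolved.

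At the end of the step most zygotic genes that rise in wildtype embryos stood low. At stage 8, 53 of the 127 zygotic genes stood below deltaDBD embryos in the E2f1 mRNA libraries and 1 above, where 1.6% of all genes tested were called, 1.3% below and 0.295% above. Against wildtype embryos at stage 8, 71 were lower and 2 higher (3.66% and 2.1% of all genes, 5.75% together). Against wildtype embryos at stage 7, 54 were higher and 7 lower (11% and 10.9% of all genes, 21.9% together). To show how far genes got, a list of wildtype risers was formed, the genes called and 4-fold or more higher at stage 8 than at stage 6 of wildtype embryos, a choice that used no E2f1 mRNA or deltaDBD library. It held 466 genes, where 69% of all genes tested were called at any size between those stages, with 72 of them in the 8 zygotic lists. For these 72, the stage 8 level with E2f1 mRNA had a median of 29.9% of the deltaDBD stage 8 level and 17.3% of the wildtype stage 8 level. The choice did use the stage 8 wildtype libraries, so comparisons of this list with stage 8 wildtype lean towards a high wildtype level. The E2f1 mRNA mean lay below that of deltaDBD embryos in all 72, and in 70 both libraries lay below both. Over all 466 risers these counts were 427 and 347. The E2f1 mRNA mean lay between the wildtype stage 7 and stage 8 means in 71 of the 72, the exception being axin2. The labels do not say whether stage 8 embryos of all groups were collected at the same time. At stage 8 too, therefore, the injection and the time of collection cannot be told apart.

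The share reached varied between lists. Nodal and siamois risers (n = 6) had a median of 56.9% of the deltaDBD level, from 34.6% for nodal to 73.3% for sia2. The 5 zinc finger genes had the narrowest range, from 42.2% to 48.9%. Ventral risers (n = 10) had a median of 33.1%, mesoderm and endoderm risers (n = 10) 27%, neural risers (n = 10) 25.9% and signalling risers (n = 12) 25.7%. The lowest medians were those of ectoderm risers (n = 7), 19.9%, and organizer risers (n = 12), 19.5%, with chrd.1 at 2.81%. Within the mesoderm and endoderm list the range ran from 15.9% for wnt8a to 73.2% for sox17b.1. The lists overlapped in range, the members of a list are not replicates, and no test of the lists against each other was made.

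**Figure D3:**
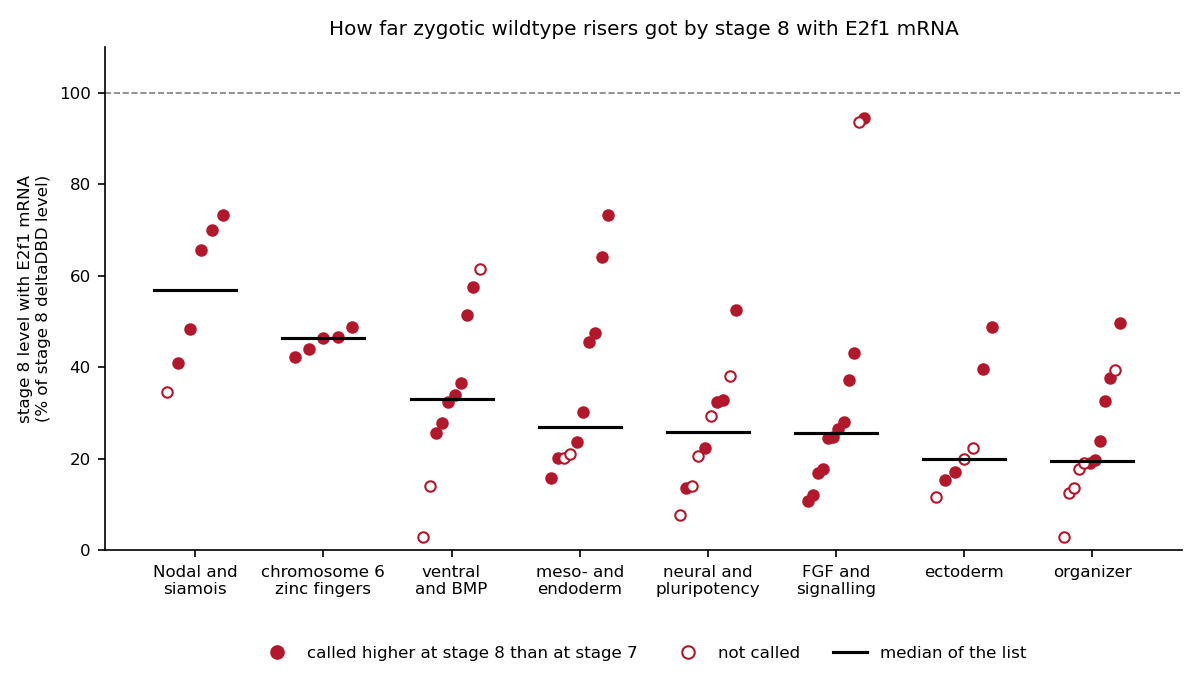
Each point is one of 72 zygotic wildtype risers, placed by its mean stage 8 level with E2f1 mRNA as a percentage of its mean stage 8 level with deltaDBD mRNA, on a linear axis; filled points were called higher at stage 8 than at stage 7, open points were not, and bars are list medians. All points lie under the dashed line at 100%, with the Nodal and siamois median highest at 56.9% and the organizer median lowest at 19.5%.

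These shares went with the time at which a gene rises in wildtype embryos. For each riser the share of its wildtype stage 6 to 8 rise that was already reached at stage 7 was taken as a measure of timing, and it uses no library of the share reached with E2f1 mRNA. Among the 298 risers under 0.2 CPM in wildtype embryos at stage 6, those with less than 5% of the rise by stage 7 (n = 144) stood at a median of 23.5% of the deltaDBD level, those with 5 to 20% (n = 80) at 42.8%, those with 20 to 50% (n = 46) at 73.5% and those with 50% or more (n = 28) at 80.7%. Spearman's rank correlation between timing and share was 0.65 over the 298 genes, and 0.86 over the 82 of them with 2 CPM or more at stage 8 in deltaDBD embryos. Over all 466 risers it was 0.77 and over the 72 zygotic ones 0.61. These are descriptions across genes within the same libraries, with no p. In the relation of share to timing, too, the injection and the time of collection cannot be told apart. In the classes of the 298 risers, in the order given, 65, 52, 16 and 1 genes were called higher in the step. Of all genes tested 22.6% were. Median stage 8 levels of these classes with deltaDBD mRNA were 0.903, 1.78, 0.629 and 0.54 CPM. High shares in the classes with 20% or more of the rise thus rest mostly on low genes with no called rise.

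Gene length had no constant relation to the share reached. The rank correlation of the share with the span from start to end was 0.35 over the 466 risers, −0.00 over the 298, −0.47 over the 82 and −0.49 over the 72 zygotic ones. That of the span with timing was 0.37, 0.03, −0.46 and −0.49 over the same sets, so its sign depended on which genes were taken. In the early classes stood sia2, gadd45g and sox17b.1, at 73.3%, 74.4% and 73.2% of the deltaDBD level, and in the late classes stx19 and lpar6, at 10.9% and 12.1%. One gene stood out, sp8, a zinc finger factor of limb and brain development, which read 3.03 and 3.71 CPM at stage 8 and 0.358 and 0.254 CPM at stage 7 with E2f1 mRNA. Its stage 8 level was 131% of the deltaDBD level of 2.58 CPM, the only 1 of the 82 above 100%, but 59.8% of the wildtype level. The 82 were chosen for a deltaDBD level of 2 CPM or more, the denominator of the share, which can lower their shares.

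**Figure D4:**
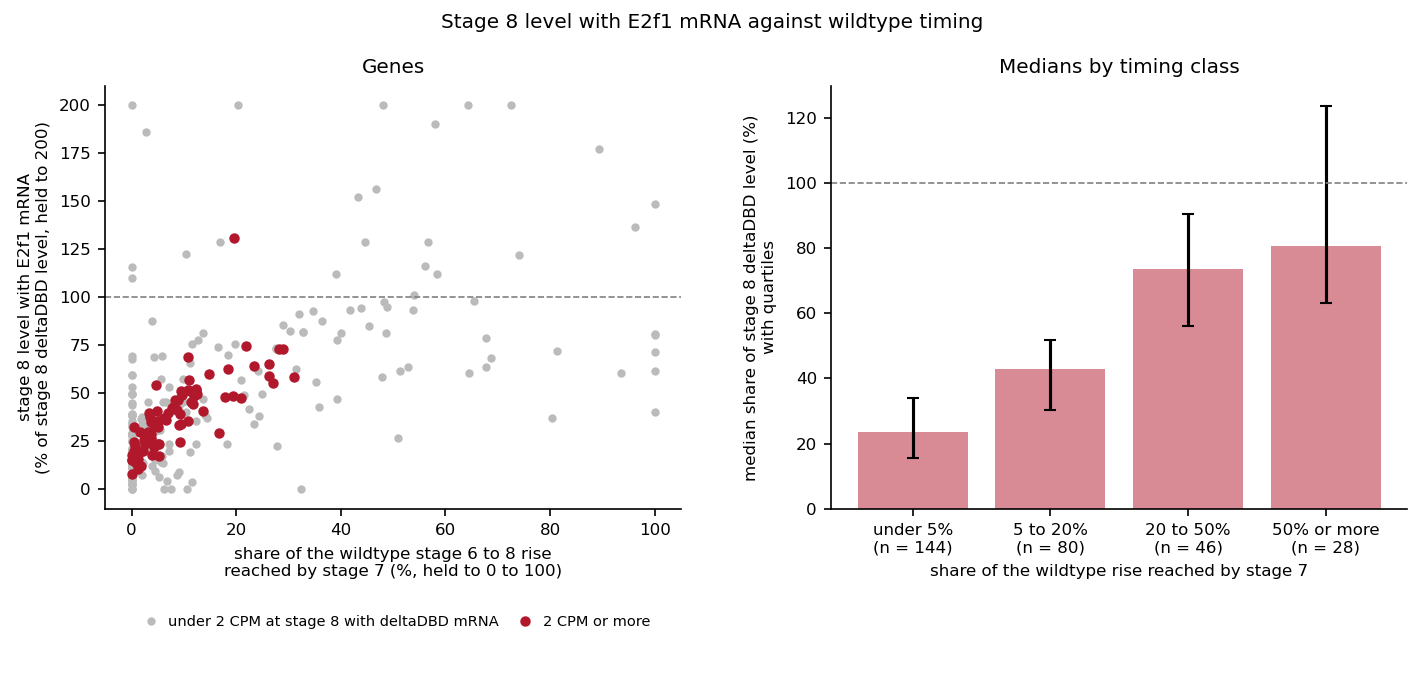
Left, each point is one of 298 wildtype risers under 0.2 CPM at wildtype stage 6, placed by the percentage of the wildtype rise reached by stage 7 (held to 0 to 100) and by its stage 8 level with E2f1 mRNA as a percentage of the deltaDBD level (held to 200), with red for 2 CPM or more at stage 8 with deltaDBD mRNA. Right, bars are class medians on an axis from 0 and whiskers are quartiles. The medians are 23.5%, 42.8%, 73.5% and 80.7% as the share of the rise reached by stage 7 grows. In the last class 1 of 28 genes was called higher in the step.

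Over the whole list of 466 wildtype risers, 280 (60.1%) were called higher with E2f1 mRNA and 0 lower, beside 22.6% and 22% of all genes tested. In the deltaDBD step 5 were higher, and in the wildtype step 381 (0.225% and 19.1% of all genes). The wildtype count shares its stage 8 libraries with the choice of the list. The E2f1 mRNA step exceeded the deltaDBD step in 215 and fell short of it in 0 (12.8% and 13% of all genes). Of the 466, 82 had no count at stage 7 with E2f1 mRNA, where 0 had none in deltaDBD embryos and 66 had none in wildtype embryos at that stage. At stage 8, 76 of the 82 were counted, 53 with more than 3 counts, and 34 were called. Over all genes tested 84 had no count at stage 7 with E2f1 mRNA, and 78 of these were counted at stage 8. Genes with no count at stage 7 pass the filter only through libraries of other groups or stages, so these counts are a description and not support. Genes with a symbol were called in 195 of 304 cases and genes known by a locus number in 85 of 162. Among the largest rises outside the 8 lists were rasd1, a Ras-related G protein gene, at 4.75 and 5.46 CPM against 0.537 and 0.190 CPM (log2 change 3.77), and gadd45g, a growth arrest gene, at 4.12 and 4.03 CPM against 0.597 and 0.254 CPM (3.22). The Notch pathway genes hes3, with 27 counts against 0, was called, whereas hes5.9, at 2.86 and 3.34 CPM against 2.69 and 1.27 CPM, and esr-5, with 29 counts against 13, were not. At stage 8, 134 of the 168 genes below their deltaDBD level were wildtype risers (79.8%), as were 466 of all 12883 genes tested. In the E2f1 mRNA step 119 of the 168 were called higher, beside 22.6% of all genes. Most of the genes that stood low at stage 8 had therefore risen.

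Called negative differences from the wildtype step were few and included genes already present at stage 7. Among the 72 zygotic wildtype risers the median difference from the wildtype step was −1.26, with 5 called smaller and 0 larger. Of all genes tested, 0.318% were called with a negative difference and 0.342% with a positive one. Their median step with E2f1 mRNA was 3.07, or 2.36 when genes with no count at stage 7 are set to the bound that 3 counts allow. In wildtype embryos the median step was 4.32, though the choice of these genes used stage 8 wildtype libraries. Over all 127 zygotic genes tested the median difference was −0.16, with 7 differences called negative and 1 positive. The absence of a call therefore does not show a step of wildtype size. Of the 41 genes with a negative difference, 10 were wildtype risers, as were 466 of all 12883 genes tested. In the wildtype step 26 of the 41 rose and 5 fell (19.1% and 17.6% of all genes), and with E2f1 mRNA 11 rose and 21 fell (22.6% and 22%). The 41 were chosen by the difference of these same steps, which favours wildtype rises and E2f1 mRNA falls, so these counts are a description and not support. Beside not, id3, klf17, eomes, dusp6, snai1 and rasl11b, named above, the 41 included the chemokine receptor gene cxcr4 and the kinase gene sgk1. Both were chosen after their values were seen. Cxcr4 stood at 13.2 and 15.1 CPM at stage 8, against 5.67 and 6.02 CPM at stage 7 with E2f1 mRNA, a step of 1.28 against 2.26 in wildtype embryos. Sgk1 stood at 7.73 and 6.94 CPM and at 3.70 and 2.79 CPM, a step of 1.17 against 2.39. The differences, −0.98 for cxcr4 and −1.22 for sgk1 (adjusted p = 0.00694 and 0.00739), were not called in 3 and 2 of the 8 settings that left out 1 library: for cxcr4 without stage 7 E2f1 mRNA replicate 2, stage 8 E2f1 mRNA replicate 1 or stage 7 wildtype replicate 1 (adjusted p up to 0.112), and for sgk1 without stage 7 E2f1 mRNA replicate 1 or stage 7 wildtype replicate 2 (adjusted p up to 0.193). Larger steps than in wildtype embryos were seen for the nucleolar gene nol8, at 149 and 158 CPM against 85.1 and 77.0 CPM (difference 0.52, adjusted p = 1.43e-05), and for the microtubule-associated gene map1b, at 18.9 and 23.2 CPM against 12.1 and 9.77 CPM (difference 1.15, adjusted p = 0.000258), likewise chosen after their values were seen.

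Stored transcripts fell in the same step. Of the 299 genes 2-fold or more lower at stage 8 than at stage 6 in wildtype embryos, 193 fell with E2f1 mRNA and 0 rose, where 22% of all genes fell. The maintenance DNA methyltransferase gene dnmt1 (chromosome 3, 137106110 to 137122282) stood at 1077 and 1085 CPM at stage 8, against 2139 and 2143 CPM at stage 7 with E2f1 mRNA. Its deltaDBD libraries read 947 and 964 CPM at stage 8 and 1122 and 1091 CPM at stage 7, and its wildtype libraries 900.5 and 913 CPM at stage 8 and 1699 and 1672 CPM at stage 7. At stage 7 the transcript was highest with E2f1 mRNA, and at stage 8 the libraries of the 3 groups lay between 900.5 and 1085 CPM. It fell by 0.99 on the log2 scale (SE 0.03, adjusted p = 4.66e-21), against a fall of 0.89 in wildtype embryos.

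Among other abundant genes with large falls, the stage 8 levels of the groups did not all come together. Wildtype libraries at stage 8 read 24.8 and 23.6 CPM for plbd2 and 127 and 125 CPM for fbxo43. The CPM values that follow are those with E2f1 mRNA. The lysosomal hydrolase-like gene plbd2 stood at 32.9 and 32.6 CPM at stage 8, against 85.6 and 86.0 CPM at stage 7, a log2 change of −1.39 (adjusted p = 1.18e-16) equal to that of wildtype embryos. The Cdk subunit gene cks2 stood at 42.5 and 52.7 CPM at stage 8, against 124 and 121 CPM at stage 7 (−1.36), and the cytokinesis scaffold gene iqgap3 at 109.7 and 115 CPM and at 269.9 and 269.8 CPM (−1.27). The meiotic inhibitor gene fbxo43 (Emi2), which holds the egg in metaphase arrest, stood at 199 and 196 CPM and at 376 and 379.7 CPM. Its change of −0.93 was smaller in size than that of −1.2 in wildtype embryos (difference 0.26, adjusted p = 0.0127), and this difference was not called in 4 of 8 settings: without stage 7 or stage 8 E2f1 mRNA replicate 1, and likewise without replicate 1 of stage 7 or replicate 2 of stage 8 in wildtype (adjusted p up to 0.112). Other large falls were those of rab11a, ifrd1, cdca3, trim37 and the mitotic phosphatase gene cdc25b, between −1.29 and −1.12.

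**Figure D5:**
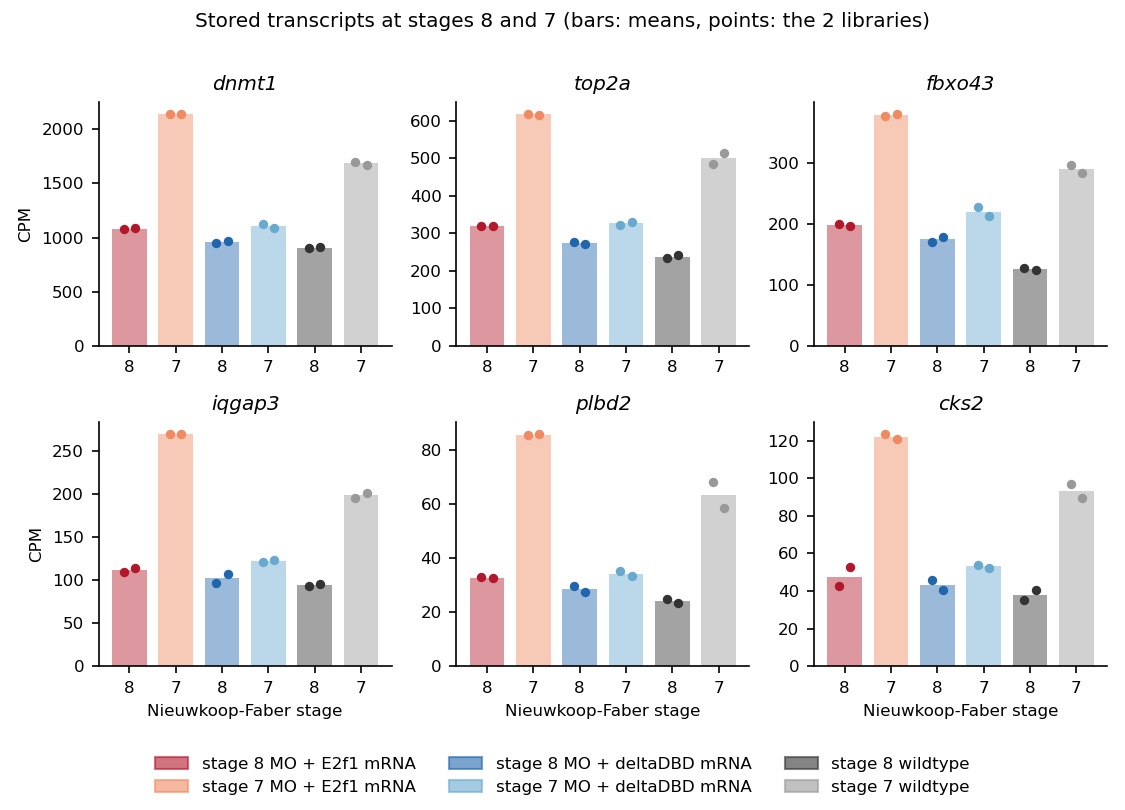
Bars are mean CPM on linear axes from 0 and points are the 2 libraries of each group, for 6 stored transcripts, with stage 8 left of stage 7 in E2f1 mRNA, deltaDBD mRNA and wildtype embryos. In each panel the stage 7 E2f1 mRNA bar is the tallest, as for dnmt1 at 2139 and 2143 CPM. At stage 8 the groups still differ in some panels, as for fbxo43 at 199 and 196 CPM with E2f1 mRNA against 127 and 125 CPM in wildtype embryos.

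By function, mitotic genes had 33 of 56 lower and 13 higher, beside 30 and 8 in wildtype embryos; of all genes tested 22% were lower and 22.6% higher with E2f1 mRNA, and the other lists are read against the same shares. Of the mitotic genes, 29 were lower in both. The topoisomerase gene top2a fell to 319.9 and 319 CPM at stage 8, against 618 and 615 CPM at stage 7 (−0.95), the polo kinase gene plk1 by 0.51 and the cyclin gene ccnb1 by 0.39. In the other direction the Cdk1-inhibitory kinase gene pkmyt1 rose by 0.64 and the condensin gene ncaph by 0.58. DNA replication genes, the best known E2F targets, had 21 of 73 higher and 25 lower (16 and 22 in wildtype embryos). The licensing genes cdc6 and mcm7 fell by 0.36 and 0.34, and the single-strand binding gene rpa1 rose by 0.56. The helicase gene mcm2 rose by 0.49, 0.28 more than in wildtype embryos (adjusted p = 0.0347, up to 0.232 without 1 library and not called in 7 of those 8 settings, the exception being without stage 8 wildtype replicate 2).

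Genes of the E2F and retinoblastoma network itself had 8 of 28 higher and 5 lower, near the 22.6% and 22% of all genes. Mybl2, a partner of the MuvB complex, rose by 0.59 and the repressor-type E2F gene e2f4 by 0.42, while e2f5 fell by 0.29 and cdk4 by 0.23. Genes of p53 signalling and apoptosis had 5 of 39 higher and 11 lower, and among them the Cdk inhibitor gene cdkn1a stood at 5.50 and 4.61 CPM at stage 8, against 2.87 and 1.90 CPM at stage 7 (log2 change 1.07, adjusted p = 2.06e-05). RNA polymerase II machinery genes had 11 of 57 higher and 33 lower (9 and 24 in wildtype embryos). The elongation kinase gene cdk9 rose by 0.67, and the polymerase subunit gene polr2b and the initiation factor gene gtf2a1 fell by 0.39 and 0.37.

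Genes of transcript clearance had 16 of 40 higher and 11 lower, beside 22.6% and 22% of all genes. The nonsense-mediated decay helicase gene upf1 fell by 0.77 and the microRNA-processing nuclease gene drosha by 0.63, while the deadenylase gene parn and the m6A reader gene ythdf3 rose by 0.43 and 0.36. Stress genes had 7 of 26 higher and 8 lower, with the chaperone gene hsp90ab1 at 1178 CPM in both stage 8 libraries and at 1606 and 1630.2 CPM at stage 7. Its fall of 0.46 was greater than in wildtype embryos (difference −0.29, adjusted p = 0.000244). Maternal genes of egg and germ plasm had 14 of 55 higher and 22 lower (13 and 18 in wildtype embryos), with the germ plasm gene nanos1 falling by 0.60, the Wnt ligand gene wnt11b by 0.55 and the Nodal pathway factor foxh1 by 0.32, and with velo1 rising by 0.27. The largest median log2 change in size among these 8 lists was −0.27, that of the mitotic genes.

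A few low genes fell with E2f1 mRNA and not in wildtype embryos. The gene eva1a, linked to autophagy and cell death, stood at 0.458 and 0.477 CPM at stage 8, against 3.28 and 3.49 CPM at stage 7, a log2 change of −2.84 (adjusted p = 3.29e-07). Its wildtype step was 0.62 and not called, and the difference was −3.46 (adjusted p = 0.00017). The iodide transporter gene slc5a5 fell by 2.46 and the nuclear gene aff2 by 2.55, and their stage 7 libraries with E2f1 mRNA, at 2.39 and 3.74 CPM for slc5a5 and 4.001 and 4.44 CPM for aff2, stood above the wildtype stage 7 means of 0.857 and 2.39 CPM. The difference from the wildtype step was −2.10 for aff2 (adjusted p = 0.0412, but not called without any 1 of the 8 libraries, up to 0.293) and −2.29 for slc5a5, which was not called (adjusted p = 0.0889).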

How the data were processed

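One table of raw counts was used, with 1 column for each of 26 poly(A) libraries. Per the file headers, the authors counted fragments per gene with featureCounts 2.0.1 on a v10 annotation, reverse-stranded, with both mates mapped and chimeric pairs left out; per the submitters' processing notes, fastp and STAR 2.7.0e came before. From these deposited counts edgeR 4.0.16 (R 4.3.3) was fitted to all 26 libraries as 13 group means, with TMM scaling, its default filter and robust quasi-likelihood tests (13 residual degrees of freedom, biological coefficient of variation 3.93%). Benjamini-Hochberg adjustment ran over all 12883 genes tested, with calls at an adjusted p below 0.05, and SE is the log2 change over the root of the F statistic. CPM values use the TMM-scaled totals, and TMM makes each change relative to the bulk of genes, so a uniform change in RNA per embryo would not show. Ratios on 1 to 3 counts carry exact 95% intervals, which cover counting error only.

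The members and gene lists were chosen with earlier results of these data known. Genes were named from, without naming all of, the tested members of the zygotic lists, the 12 largest rises and falls with 2 CPM or more, the 6 most extreme differences from the deltaDBD step each way, the 8 highest wildtype risers not called, those of highest and lowest share, and the leading called genes of the other lists; genes outside this rule are said to be chosen after their values were seen. On simulated counts with known changes, the stage 8 over stage 7 test with E2f1 mRNA recovered 65.7%, 85.1% and 90.9% of 1.5-, 2- and 4-fold changes and called 13 of 12601 unchanged genes. The simulation changed 200 of 12801 genes, where 44.6% of genes were called in the data, so these rates do not carry over to the data. It used the spread estimated from these libraries, so it cannot check that spread. DESeq2 1.42.0, its size factors in edgeR, no filter, the replicate block, fits of only the groups compared, left-out libraries, e2f1 and cdkn1a left out, and riser thresholds of 2- and 8-fold were the alternatives. No sequences are reported, and a planned count of promoter motifs was not made, because no reference promoters were used here.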

Additional observations from a re-analysis of the deposited data

Results flagged for a closer look

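The step with E2f1 mRNA differed from the same step in other groups by a test of the difference. It differed at 3320 genes from the deltaDBD step, at 3563 genes from the step with the morpholino alone, whose stage 8 libraries stood apart from each other, and at 85 genes from the wildtype step. Among zygotic genes, the log2 difference from the wildtype step was −1.35 for not, −3.90 for eomes, −0.75 for snai1, −1.76 for id3, −1.38 for klf17, −1.61 for dusp6 and −1.70 for rasl11b, and it was 0.53 for rnd1. Of these, the differences of snai1, dusp6 and rnd1 were not called when some single libraries were left out (adjusted p up to 0.176, 0.385 and 0.214). At stage 7 the wildtype means of not, id3 and klf17 were 10.6, 6.52 and 11.2 CPM.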

How the results depend on the processing

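The counts of genes called in the E2f1 mRNA step stayed within 1.5 times under all alternatives run, and no result changed direction. With 1 library left out, genes higher ran from 2235 to 2388 and lower from 2266 to 2331; zygotic genes from 52 to 59 higher and 9 to 12 lower, wildtype risers from 223 to 245, and the median shares of the stage 8 level from 28.6% to 30.3% of deltaDBD and 17.5% to 19.6% of wildtype embryos. For the deltaDBD step the ranges were 7 to 11 and 4 to 7, for morpholino alone 68 to 1500 and 54 to 1986, and for wildtype 1685 to 2070 and 1576 to 1857. The difference from the deltaDBD step gave 1161 to 1367 and 1266 to 1362 (zygotic genes 39 to 51 and 5 to 7, risers 161 to 194), that from morpholino alone 1350 to 2372 and 1322 to 2067, and that from wildtype 17 to 27 and 19 to 26. Stage 8 against deltaDBD gave 20 to 22 and 97 to 128, against stage 8 wildtype 123 to 128 and 267 to 341, and against stage 7 wildtype 772 to 913 and 778 to 1008. With DESeq2, 17 genes were higher in the deltaDBD step and 68 in the morpholino-only step. DESeq2 also ended the calls of 5 named genes in the E2f1 mRNA step, eomes, fst and vegt among them. It ended 10 in the difference from the deltaDBD step and 2, mcm2 and rnd1, in that from the wildtype step. The step call of eomes also ended with only the groups compared, that of vegt with DESeq2 size factors in edgeR and that of zic2 with no filter. With no filter, the deltaDBD step had 48 higher and 36 lower and the morpholino-only step 351 and 829. In that setting 89 genes had a positive difference from the wildtype step, and 58 were higher than with deltaDBD mRNA at stage 8. With only the groups compared in the fit, the deltaDBD step had 146 higher and 146 lower, the morpholino-only step 0 and 0, the difference from morpholino alone 963 and 871, and that from wildtype 319 and 221. In such fits stage 8 gave 213 higher and 359 lower against deltaDBD, 615 and 793 against wildtype, and 2178 lower against stage 7 wildtype. Fits without the morpholino-only groups hold fewer libraries and also lack the stage 8 pair that stood apart. The cause of these shifts was not tested. Same-numbered libraries correlated at r = 0.0246 in the E2f1 mRNA pair and over 0.1 in 6 of 36 pairs of the groups used here (−0.124 to 0.174). The 6 are all the pairs among stage 6 wildtype, stage 8 wildtype and both morpholino-only groups. Same-numbered libraries of those groups may thus share something, which was not tested. The numbers were not taken to pair samples. The replicate block kept the calls of all 167 named genes in the step, all 146 in its difference from the deltaDBD step and all 25 in its difference from the wildtype step. Over the 4 libraries, leaving 1 out kept the call in 601 gene and setting pairs and ended it in 67. A riser threshold of 2-fold gave 1166 of 1707 risers higher, and one of 8-fold 156 of 276, beside 22.6% of all genes tested. Depth limits the zygotic genes with few counts.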
